A study of Homo sapiens with 12 samples.

Results

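The high mobility group (HMG) chromatin proteins are small, abundant nuclear proteins that fall into the HMGN, HMGB and HMGA families. The 9 genes described here were HMGN1, HMGN2, HMGN3, HMGN4, HMGN5, HMGB1, HMGB2, HMGB3 and HMGA1. They were picked by gene symbol, with their pseudogenes kept out, from 34318 genes that had a matched transcript in the deposited table. The choice was made with one result of these data in view, a lower HMGN1 level after an siRNA, so values from the siRNA experiment are given for these genes as a description, with no p-value and nothing drawn from a test. Their response to a compound in a separate experiment played no part in the choice and was tested.

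The libraries came from HEK293T, an easily transfected human embryonic kidney line. They formed 4 groups of 3, 12 in all. One experiment was a knockdown of POLR3A, the gene of the largest subunit of RNA polymerase III. Its 2 groups, siControl and siPOLR3A, had been transfected with control or POLR3A siRNA 2 days before harvest. In the other, cells were kept for 4 hours with the vehicle DMSO at 0.1% or with ML60218 at 25 µM, a small-molecule inhibitor of RNA polymerase III. Neither the siRNA sequences nor the number of siRNAs per pool was given in the sources used here. The labels did not say that libraries of a group came from separate cultures, so p-values measure only the spread between these libraries, which may be technical. These are bulk libraries, in which fewer cells of a kind and less RNA per cell cannot be told apart.

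HMGN proteins bind directly to the nucleosome core particle, compete with linker histone H1 and loosen compacted chromatin. HMGB proteins carry paired HMG boxes that bend DNA through its minor groove, followed by an acidic tail, and HMGB1 also acts outside the cell as an alarm signal. HMGA proteins use short AT-hook motifs to hold AT-rich DNA and help assemble transcription factor complexes, and they are high in embryonic and transformed cells.

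Earlier work on these data had singled out the 6-base sequences GAGGGA and GACGTA in the 3′ untranslated regions (UTRs) of genes that changed after the siRNA. The coding transcript with the most reads of each of the 9 genes was therefore scanned on its sense strand in GENCODE 29 models. GAGGGA was present as 1 copy in the 3′ UTR of HMGN1, HMGN2, HMGN3 and HMGN5, and as 0 copies in those of HMGN4, HMGB1, HMGB2, HMGB3 and HMGA1. HMGB2 had 1 copy in its 5′ UTR. GACGTA was present in none of the 9 UTRs. The 4 sites found in 3′ UTRs are shown. Their hosts include the 3 genes with the lowest log2 fold changes after the siRNA, and also HMGN2, whose groups overlapped there (−0.01). The hexamers and the 9 genes were both chosen with results of this siRNA experiment known, so nothing is read from that match. A link between a site and a change was not tested. Each is 30 bases of GRCh38 read 5′ to 3′ on the gene's strand, with GAGGGA in capitals.
HMGN1 (chr21:39342971-39343000, minus strand): atttttaagaagGAGGGAatcccacctcat
HMGN2 (chr1:26475401-26475430, plus strand): ggctcccaggagGAGGGAttccctgacttt
HMGN3 (chr6:79201682-79201711, minus strand): tctgtagataacGAGGGAgaatgaattgtc
HMGN5 (chrX:81114310-81114339, minus strand): atttcataaagtGAGGGAtcccaaaaaaag

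The bases next to the hexamer differed between the 4 genes. A copy of GAGGGA is common. It was found in 34.7% of the 14082 3′ UTRs scanned, and GACGTA in 3.91%. Among 3′ UTRs of a length close to that of the host, GAGGGA was in 26.4% for HMGN1, 27.3% for HMGN2, 18.6% for HMGN3 and 30.7% for HMGN5. A match is a match of letters and not a binding site. The gene models scanned differ in length from the quantified transcripts for some members, such as 1383 against 1271 bases for HMGN1-204 and 1191 against 1940 for HMGN2-201.

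Estimated reads per library ranged from 37008325 to 49479476. POLR3A itself, the siRNA target, was at 90.8 ± 3.56 CPM (read counts scaled to library size by TMM, given as mean ± SD, n = 3) in siControl and at 17.6 ± 2.65 CPM in siPOLR3A. It was at 113 ± 4.99 CPM with DMSO and at 86.5 ± 2.2 CPM with ML60218. Of 7 marker genes of HEK293T, all were above 0 TPM (abundance per transcript length, scaled to a fixed total) in every library, from LHX1 (0.680 to 1.90) to VIM (267 to 435). PTPRC was at 0 in all 12, and ALB, PECAM1 and UMOD did not pass 0.255. COL1A1, listed as a fibroblast marker that should be lacking, stood at 18.2 to 28.1 TPM. It was called higher after the siRNA (28.1 ± 0.985 to 35.05 ± 1.29 CPM, log2 fold change 0.32) and was not called with ML60218. Among the HEK293T markers, VIM, NEFL and NEFM were lower and KRT18 higher after the siRNA, and KRT8, NEFL and NEFM were called higher with ML60218. Of the 7, 3 were called lower and 1 higher after the siRNA, beside 29.2% and 27.4% of all genes. With ML60218, 0 were called lower and 3 higher, beside 20.9% and 18.1%. The KRT8 call was lost in 7 of 16 alternatives, including without DMSO replicate 1 or 2 or ML60218 replicate 1 or 3. The NEFL call was lost without DMSO replicate 2 or 3 or ML60218 replicate 2. Their part in the results below was not tested.

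All 9 genes were well expressed. On the TPM scale, which corrects for transcript length and so allows genes to be compared, the order in siControl was led by HMGB1 at 530 ± 13.3 TPM (SD, n = 3). HMGN1 followed at 489 ± 14, HMGN2 at 430 ± 12.0, HMGB3 at 241 ± 2.56, HMGB2 at 225 ± 3.47 and HMGA1 at 224 ± 7.46. HMGN3 stood at 173 ± 5.45, HMGN5 at 130 ± 2.51 and HMGN4, a gene closely related to HMGN2, was the lowest at 58.9 ± 2.47 TPM. Only HMGB2 and HMGA1 had overlapping libraries among neighbours in this order. Even HMGN4 was above 93.8% of the genes of that group.

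The DMSO controls gave a different leader. HMGN2 was highest there at 822 ± 12.8 TPM, with libraries at 831, 827 and 807, while the siControl libraries were at 433, 417 and 441. HMGB1 followed at 605 ± 19.0 TPM and HMGN1 at 544 ± 10.5. HMGB3, HMGB2, HMGN3 and HMGA1, between 220 and 242 TPM on average, overlapped each with its neighbour. HMGN2 was thus 1.91 times as high in DMSO as in siControl. For the other 8 genes this ratio lay between 0.818 for HMGN5 and 1.31 for HMGN3. The controls come from separate experiments, and their sample titles do not name the cells in the same way. They also differ in vehicle, transfection and time, and all these differences cannot be told apart.

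Of the remaining canonical genes of these families, HMGA2, the embryonic relative of HMGA1, stood at 62.0 ± 3.24 TPM in siControl and 71.4 ± 2.48 with DMSO, and HMGB4 was listed at 0 in all 12 libraries. The 9 genes together summed to 2501 ± 50.1 TPM in siControl and 2083 ± 33.0 in siPOLR3A. With DMSO they summed to 3061 ± 84.3 TPM and with ML60218 2961 ± 79.1.

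**Figure D1:**
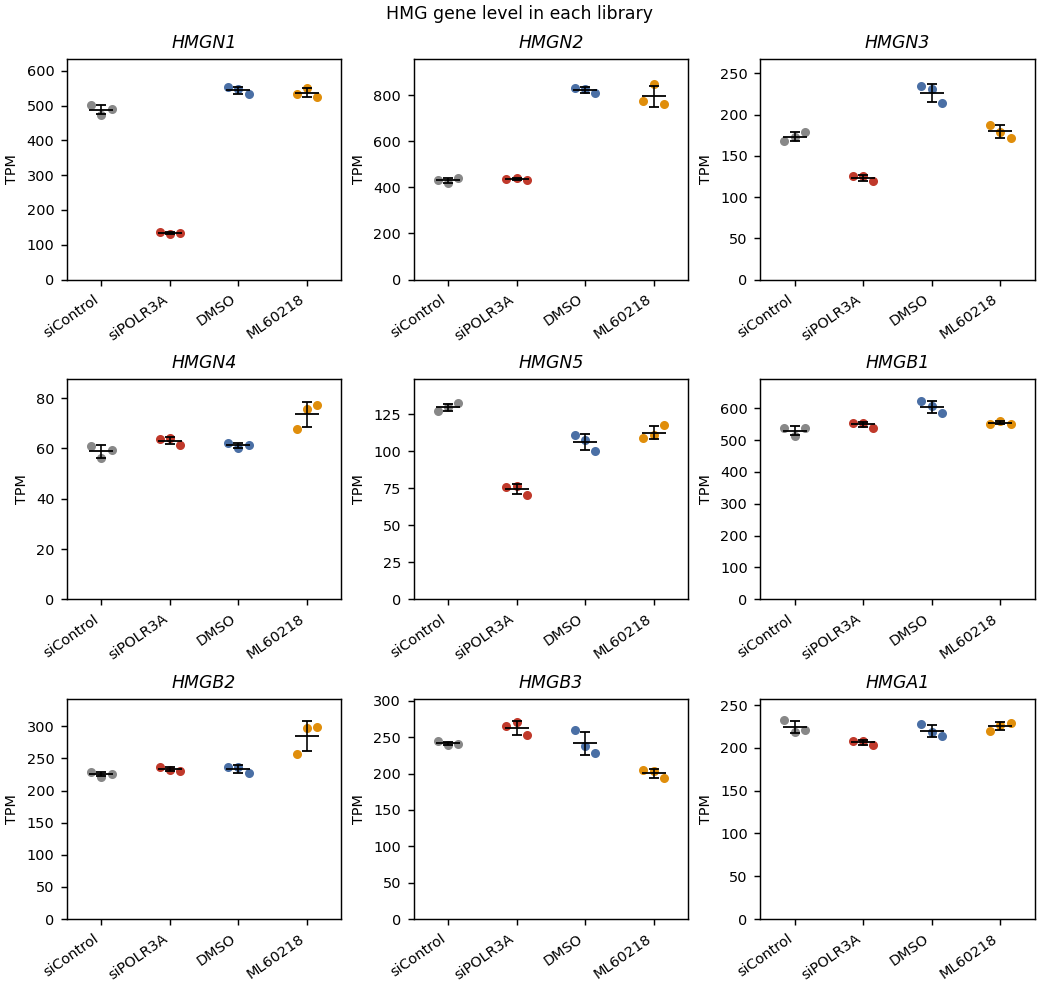
Level of each of the 9 HMG genes in TPM (vertical axis, each panel with its own scale from 0) in the 12 libraries, grouped on the horizontal axis. Points are libraries and the black marks are the group mean ± SD (n = 3). HMGN1 lies at 131 to 136 TPM in the siPOLR3A libraries and at 474 or above in all others, and HMGN2 is higher in both DMSO and ML60218 than in the siRNA groups.

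After the siRNA the lower values were concentrated in 3 HMGN genes. HMGN1, which binds nucleosomes and is known for roles in DNA repair and histone modification, was at 481, 493 and 485 CPM in siControl and at 180, 169 and 175 CPM in siPOLR3A. Its groups were far apart relative to their spread, and the log2 fold change was −1.48 ± 0.026 (SE), or 2.78-fold lower. Of 15404 genes tested, 89 had a lower log2 fold change. In TPM, HMGN1 moved from rank 2 among the 9 in siControl to rank 6 in siPOLR3A, at 134 ± 2.74.

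HMGN5, which has a long acidic tail and directly counters linker histone binding, was at 148, 174 and 161 CPM in siControl and at 105, 103 and 91.6 CPM in siPOLR3A (log2 fold change −0.69 ± 0.083). Its groups did not overlap, and its spread within groups, with a coefficient of variation of 8.06% in siControl and 7.19% in siPOLR3A, was the largest of the 9 genes. HMGN3, a family member with tissue-restricted expression, was at 83.8, 91.6 and 90.6 CPM in siControl and at 64.9, 64.3 and 60.6 CPM in siPOLR3A (−0.49 ± 0.039). All siPOLR3A libraries again lay below all siControl libraries. HMGN2, another widely expressed nucleosome-binding member, was at 424 ± 10.6 and 420 ± 8.51 CPM (−0.01 ± 0.025), and its groups overlapped. HMGN4 was at 79.7 ± 0.497 and 82.8 ± 3.39 CPM (0.06 ± 0.033), also with overlap.

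HMGB and HMGA genes stayed within a narrow band in the same experiment. HMGB1, the most abundant HMGB protein, was at 525, 542 and 546 CPM in siControl and at 562, 560 and 551 in siPOLR3A (log2 fold change 0.05 ± 0.023), with no overlap. HMGB2, which is linked to dividing cells, had overlapping groups at 252 ± 5.27 and 255 ± 3.88 CPM. HMGB3 was at 273 ± 7.28 and 258 ± 4.82 CPM (−0.08 ± 0.026), with no overlap. On the TPM scale HMGB3 had the opposite direction, 241 ± 2.56 and 263 ± 9.04, and an offset for isoform length turned its log2 fold change to 0.10. HMGA1 was at 251 ± 2.67 and 228 ± 1.02 CPM (−0.14 ± 0.022), with no overlap, while HMGA2 was higher, at 154 ± 0.423 and 183 ± 4.57 CPM (0.25 ± 0.026).

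Since the choice of the 9 genes used this experiment, no count of calls is given for them. Of all genes tested, 29.2% were called lower and 27.4% higher at an adjusted p under 0.05 (56.6% in either direction). In CPM the groups did not overlap for 5 of the 9 genes on the lower side and 1 on the higher side. The shares of all genes were 32.4% and 31.1% (63.4% together), and nothing is read from those counts. Across 16 alternative settings the HMGN1 value ran from −1.89 to −1.42, HMGN5 from −0.82 to −0.63 and HMGN3 from −0.52 to −0.43. HMGN2 changed sign under 4 settings. The median log2 fold change over all genes was 0.0054.

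**Figure D2:**
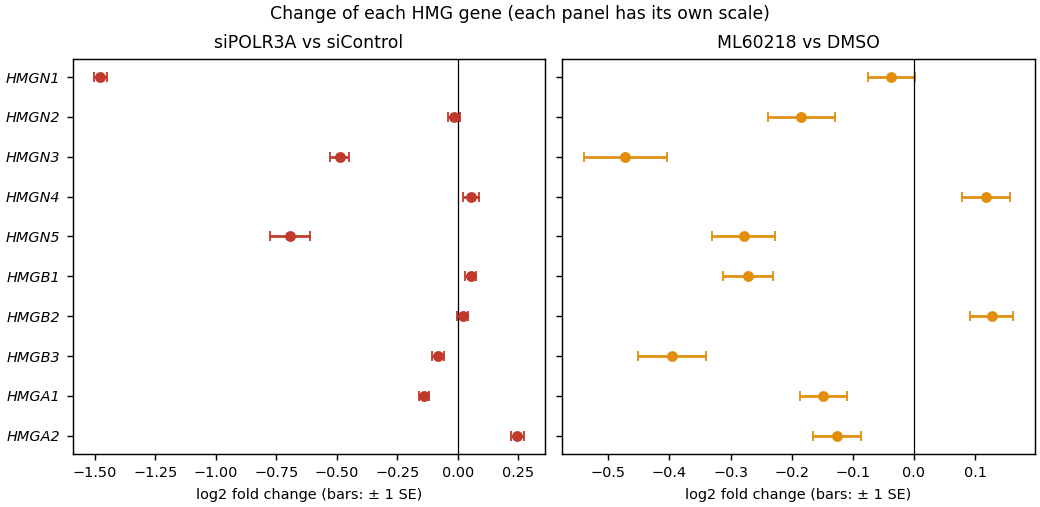
Log2 fold change of each HMG gene and of HMGA2 (horizontal axis, each panel with its own scale, bars ± 1 SE from the edgeR fit of 6 libraries) for siPOLR3A against siControl on the left and ML60218 against DMSO on the right. On the left HMGN1 (−1.48), HMGN5 (−0.69) and HMGN3 (−0.49) lie lowest. On the right HMGN3 (−0.47) and HMGB3 (−0.40) are lowest and HMGN1 (−0.04) lies near 0.

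ML60218 changed most of the family by modest amounts within 4 hours. By edgeR's quasi-likelihood test with Benjamini-Hochberg adjustment over 15461 genes, 6 of the 9 genes fell, 2 rose and HMGN1 did not pass. Of all genes tested, 20.9% fell, 18.1% rose and 39% were called in either direction. The CPM of the groups did not overlap for the same 8 genes, beside 51.9% of all genes (27% lower and 24.8% higher). The median log2 fold change of the 9 genes was −0.18, and that of all genes tested was 0.0054. The count of called members rested partly on the DMSO libraries: it dropped from 8 to 4 without DMSO replicate 1 and to 5 without DMSO replicate 2.

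HMGN1 itself was at 493, 496 and 505 CPM with DMSO and at 507, 489 and 460 CPM with ML60218. Its groups overlapped, with a log2 fold change of −0.04 ± 0.038 and an edgeR adjusted p of 0.481 (0.0233 to 0.997 over its alternatives). With an offset for isoform length it was called, at −0.15, and with total-count scaling it had the opposite sign, at 0.03.

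HMGN3 fell the most. Its libraries were at 116, 119 and 116 CPM with DMSO and at 93.7, 83.6 and 75.8 CPM with ML60218, a log2 fold change of −0.47 ± 0.068 (edgeR adjusted p = 0.00139). Every ML60218 library lay under every DMSO library, and the call held in all 16 alternatives. Of 15461 genes, 527 had a lower log2 fold change.

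HMGN5 fell from 151 CPM in each DMSO library to 135, 123 and 115 CPM (−0.28 ± 0.052, edgeR adjusted p = 0.00293). The 3 DMSO values spread over less than 1 CPM and all ML60218 values were lower. That fall was lost when isoform lengths were used as an offset (−0.05, edgeR adjusted p = 0.340; range over its alternatives 1.07e-05 to 0.340). In TPM, HMGN5 was at 106 ± 5.23 with DMSO and 113 ± 4.36 with ML60218, with overlapping groups. The other members also had higher relative ML60218 values in TPM than in CPM, as given below with HMGA1.

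HMGN2 fell from 797, 799 and 799 CPM to 727, 745 and 635 CPM (−0.18 ± 0.055, edgeR adjusted p = 0.0259). The groups did not overlap, although the spread between the ML60218 libraries was much wider than between the DMSO libraries. Its call was lost in 5 of 16 alternatives, among them leaving out any DMSO replicate, with adjusted p up to 0.0765. HMGN4 rose from 81.4, 79.7 and 84.8 CPM to 86.6, 91.3 and 89.0 CPM (0.12 ± 0.039, edgeR adjusted p = 0.0354). The lowest ML60218 library stood just above the highest DMSO library, and 6 of 16 alternatives lost the call, with adjusted p up to 0.156. These included leaving out DMSO replicate 1 or 2 or ML60218 replicate 2 or 3.

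Among HMGB genes, HMGB3, which is known from blood progenitor cells, fell from 290, 281 and 278 CPM to 231, 218 and 196 CPM. Its log2 fold change was −0.40 ± 0.056 (edgeR adjusted p = 0.00107). HMGB1 fell from 639, 645 and 636 CPM to 555, 538 and 498 CPM, by 0.27 ± 0.040 on the log2 scale (edgeR adjusted p = 0.000939). Neither gene had overlapping groups, and both calls held in all 16 alternatives. HMGB2 went the other way. It rose from 254, 260 and 260 CPM to 272, 294 and 279 CPM (0.13 ± 0.035, edgeR adjusted p = 0.0175). This call was lost without any one of the DMSO replicates or without ML60218 replicate 2, with adjusted p up to 0.0875.

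HMGA1 fell from 242, 231 and 229 CPM to 218, 213 and 202 CPM (−0.15 ± 0.038, edgeR adjusted p = 0.0124). The groups did not overlap. The call was lost in 3 of 16 alternatives, including without DMSO replicate 1, with adjusted p up to 0.109. In TPM its means were 220 ± 7.15 and 225 ± 4.86, with overlap, so the direction depends on the unit. This shift was not particular to HMGA1. Relative to DMSO, the ML60218 mean was higher in TPM than in CPM for each of the 9 genes. HMGN4 went from 61.2 to 73.6 TPM and from 82.0 to 89.0 CPM. HMGB1 went from 605 to 555 TPM and from 640 to 530 CPM. The TPM values were used as deposited, without TMM factors, and the cause of the shift was not tested. HMGA2 fell by 0.13 ± 0.039 on the log2 scale, from 183 ± 2.46 to 167 ± 8.22 CPM (edgeR adjusted p = 0.0273). The HMGA2 call did not survive 6 of 16 alternatives, each DMSO library left out in turn among them, and its highest adjusted p was 0.233.

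ML60218 replicate 3 was the lowest of the 6 libraries for 7 of the 9 genes. The median coefficient of variation of the 9 genes was 5.51% with ML60218 and 1.32% with DMSO, against 2.09% in siControl and 2.03% in siPOLR3A. Of 144 pairs of gene and alternative, 141 kept the sign of the log2 fold change, and the other 3 were all HMGN1.

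**Figure D3:**
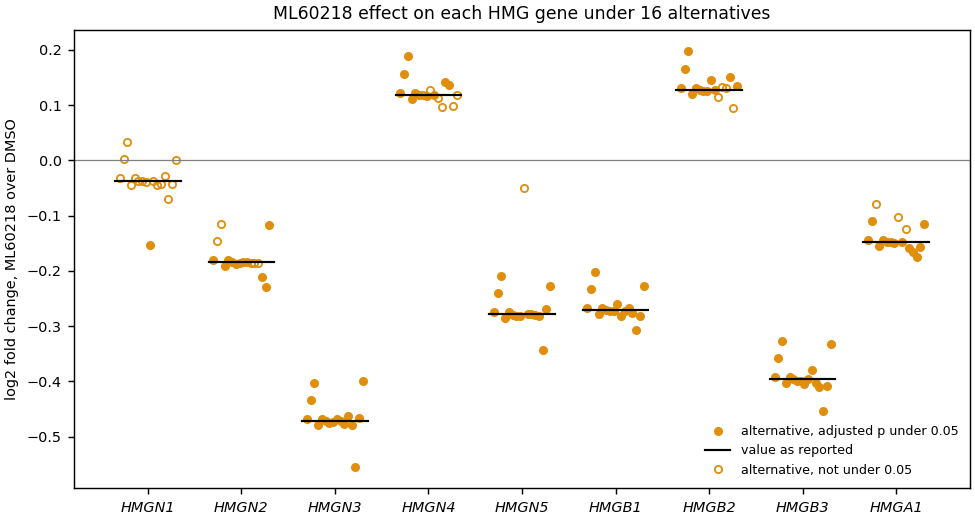
Log2 fold change for ML60218 over DMSO (vertical axis) of each of the 9 HMG genes under 16 alternative settings. Filled points have an adjusted p under 0.05, open points do not, and the black line is the value as reported. HMGN3, HMGB1 and HMGB3 have filled points only, while HMGN2, HMGN4, HMGB2 and HMGA1 have open points in 3 to 6 settings.

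HMGN1 reads were divided among coding and noncoding transcript models, and these moved differently. HMGN1-204, the protein-coding transcript, took 313 ± 3.28 CPM in siControl and 53.0 ± 1.5 CPM in siPOLR3A. Summed over the 3 coding transcripts the level was 314 ± 2.85 and 53.5 ± 1.32 CPM, which is 5.86-fold lower. The 5 transcripts annotated with a retained intron were at 143 ± 4.47 and 107 ± 3.10 CPM, 1.33-fold lower. Coding transcripts held 77.9% ± 0.207 of HMGN1 TPM in siControl and 49.4% ± 0.691 in siPOLR3A. Retained-intron transcripts held 13.3% ± 0.233 and 35.9% ± 1.21. The 5 transcripts marked for nonsense-mediated decay went from 23.2 ± 0.942 to 11.4 ± 1.82 CPM.

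With ML60218, the near-constant HMGN1 total covered opposite movements. Coding transcripts of HMGN1 were at 368, 369 and 373 CPM with DMSO and at 325, 315 and 276 CPM with ML60218. Retained-intron transcripts were at 94.3, 95.7 and 104 CPM with DMSO and at 146, 139 and 152 CPM with ML60218. Neither pair of groups overlapped, with the coding class lower and the retained-intron class higher (log2 ratios of the means −0.28 and 0.57). Among all genes, 51.9% had groups without overlap with ML60218. In HMGB2, the only other member with a retained-intron transcript, that transcript was lower with ML60218, without overlap (24.7 ± 0.908 to 21.4 ± 1.49 CPM). Shares of HMGN1 TPM were 84.0% ± 0.264 and 76.9% ± 1.68 for coding transcripts and 8.20% ± 0.574 and 13.2% ± 1.31 for retained-intron transcripts. The main retained-intron models were HMGN1-216, at 72.9 ± 2.9 and 101 ± 0.744 CPM, and HMGN1-220, at 22.5 ± 1.95 and 42.3 ± 6.36 CPM. No model was fitted across transcripts, and an exact permutation test of 3 against 3 libraries cannot give a two-sided p under 0.1. Reads were divided among overlapping models by the quantifier, so these values are estimates. HMGN1-204, HMGN1-216 and HMGN1-220 each hold 1 copy of GAGGGA. Its position was mapped in HMGN1-204 only, as shown above.

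**Figure D4:**
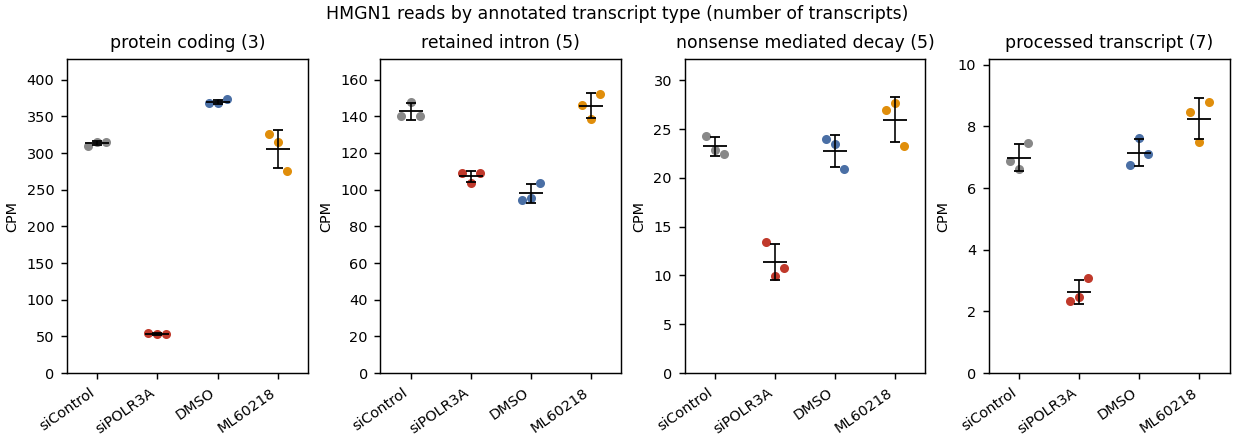
HMGN1 reads in CPM (vertical axes from 0, each with its own scale) by annotated transcript type, with the number of transcripts in each title. Points are libraries and black marks the mean ± SD (n = 3). The protein-coding panel drops to 53.5 CPM in siPOLR3A, and the retained-intron panel shows ML60218 (146 CPM) above DMSO (97.9 CPM).

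Other members also shifted between transcripts. Most HMGN5 reads were assigned to HMGN5-201, a transcript of 2099 bases, which went from 127 ± 0.192 CPM with DMSO to 98.7 ± 9.54 with ML60218. HMGN5-203, of 578 bases, went from 13.97 ± 0.909 to 17.5 ± 0.961 CPM, and neither pair overlapped. In TPM the 2 were closer. HMGN5-201 held 54.0% of HMGN5 TPM with DMSO and 44.3% with ML60218, and HMGN5-203 held 30.3% and 40.3%. HMGN5 lost its fall on the length-corrected scale, and the part of these transcripts in that was not tested. After the siRNA, HMGN5-203 was at 22.1 ± 0.791 and 9.41 ± 0.259 CPM and HMGN5-201 at 129 ± 12.1 and 82.0 ± 7.01. HMGN3-201 was at 51.3 ± 2.62 and 31.9 ± 1.17 CPM in siControl and siPOLR3A, and HMGN3-202 at 37.4 ± 1.74 and 31.3 ± 1.56. In HMGB3 the transcripts went in opposite directions after the siRNA. HMGB3-201, of 3507 bases, was at 165 ± 4.78 and 134 ± 0.974 CPM, and HMGB3-205, of 793 bases, at 106 ± 2.22 and 121 ± 7.55 CPM. With ML60218 both HMGB3 transcripts were lower without overlap.

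Pseudogenes matter for HMGB1. Its annotated pseudogenes took between 19.0% and 20.8% of the reads of gene and pseudogenes together, mostly HMGB1P5 and HMGB1P6. HMGB1P5 was at 112 ± 5.0 CPM with DMSO and 90.6 ± 9.25 with ML60218, so it moved in the direction of HMGB1 (log2 fold change −0.31). Reads of such near-identical copies can be divided wrongly, and the HMGB1 level is uncertain to that extent. For the other members pseudogenes took at most 0.537% of the reads. Adding pseudogene reads to their parent genes left all 8 calls in place.

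Genes that work with HMG proteins were taken as lists. They were written from general knowledge with earlier results of these data known. Of 26 HMG-box proteins outside the HMGB family, 10 fell and 4 rose with ML60218 (edgeR, all 26 tested), where 20.9% of all genes fell and 18.1% rose, and the median log2 fold change was 0.03. With total-count scaling the balance turned, to 6 that fell and 7 that rose, and with upper-quartile scaling it was 7 and 5. TOX, a lymphocyte transcription factor, rose from 1.61 ± 0.121 to 2.90 ± 0.316 CPM (0.85 ± 0.144, edgeR adjusted p = 0.00164). SOX2, a pluripotency and neural factor, fell from 27.2 ± 0.694 to 18.6 ± 1.72 CPM (−0.55 ± 0.068, edgeR adjusted p = 0.000399). SOX4 rose from 213 ± 5.97 to 302 ± 55.0 CPM (0.51 ± 0.139, edgeR adjusted p = 0.0431), a call that 6 of 16 alternatives lost. TOX3 (0.27) and NSD2 (0.12), named after their values were seen, made up the 4 that rose. Without DMSO replicate 1 or 2 only 1 rose, and 2 rose without DMSO replicate 3 or ML60218 replicate 2. Without DMSO replicate 2 the falls numbered 6. After the siRNA, 8 of the 26 were called higher and 10 lower, beside 27.4% and 29.2% of all genes. CIC, a repressor, had the largest difference (13.7 ± 1.86 to 27.7 ± 2.12 CPM, 1.01). SSRP1, the HMG-box subunit of the FACT histone chaperone, followed (601 ± 8.99 to 327 ± 4.90 CPM, −0.88).

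Of 7 linker histones listed, the proteins HMGN competes with, 4 were tested in the siRNA experiment. There 1 was called higher and 1 lower, beside 27.4% and 29.2% of all genes, and not all are named here. H1-10 was called higher (60.4 ± 1.49 to 88.9 ± 0.731 CPM, 0.56). H1-2 was not called there (8.34 ± 0.599 to 7.47 ± 0.139 CPM, −0.16).

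Replacement histones are variants deposited outside replication. Of 8 tested with ML60218, 6 fell and 1 rose, where 20.9% and 18.1% of all genes did so, and the median log2 fold change was −0.28, with 0.0054 over all genes. H2AX, the variant phosphorylated at DNA breaks, fell from 42.2 ± 2.09 to 31.1 ± 2.13 CPM (−0.44 ± 0.060, edgeR adjusted p = 0.000631). H2AZ1 fell from 559 ± 7.02 to 416 ± 48.0 CPM (−0.43 ± 0.080, edgeR adjusted p = 0.00688) and H3-3A, a gene for histone H3.3, from 478 ± 5.47 to 359 ± 40.5 CPM (−0.41 ± 0.078, edgeR adjusted p = 0.00696). The number that fell stayed between 5 and 7 in all 16 alternatives. H2AJ, named after its value was seen, was the 1 that rose (0.25), and 6 of 16 alternatives lost its call. In the siRNA experiment 2 were called higher and 2 lower, beside 27.4% and 29.2% of all genes. H3-3A was higher there (173 ± 6.68 to 428 ± 9.06 CPM, 1.31), MACROH2A2, a gene of a large H2A variant, lower (53.0 ± 1.79 to 19.0 ± 1.18 CPM, −1.48), and H2AZ1 higher (418 ± 3.69 to 469 ± 3.58 CPM, 0.16). H2AZ2 was the other gene called lower (−0.07).

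Histone chaperones, which load and remove histones, gave falls that were sensitive to the setting. Of 15 tested among 17, 8 fell and 0 rose with ML60218 (20.9% and 18.1% of all genes), led by SPTY2D1 (70.4 ± 0.714 to 57.5 ± 2.04 CPM, −0.29 ± 0.040, edgeR adjusted p = 0.000617). ASF1A, which carries H3 and H4, fell by 0.26 ± 0.041 on the log2 scale (67.0 ± 2.67 to 55.8 ± 0.538 CPM). HIRA, which deposits H3.3, fell by 0.15 ± 0.0335 (88.0 ± 1.1 to 79.5 ± 1.01 CPM). The falls numbered 4 without DMSO replicate 1, 4 without DMSO replicate 2 and 3 without DMSO replicate 3. They numbered 3 with upper-quartile and 2 with total-count scaling. After the siRNA, 6 were called higher and 7 lower, beside 27.4% and 29.2% of all genes. SSRP1 (given above) and CHAF1B (74.0 ± 1.52 to 40.4 ± 1.62 CPM, −0.87) were the lowest, and SPTY2D1 was the highest (66.8 ± 2.32 to 88.6 ± 0.175 CPM, 0.41).

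The SET complex, which holds HMGB2 together with nucleases and the template-activating factor SET, was measured through 4 of 5 listed partner genes. With ML60218, ANP32A fell from 545 ± 6.17 to 460 ± 24.1 CPM (−0.24 ± 0.0395, edgeR adjusted p = 0.00132), and NME1 from 203 ± 2.1 to 183 ± 12.4 CPM (−0.15 ± 0.046, edgeR adjusted p = 0.0267). The other list genes tested did not pass, and HMGB2 itself rose, as given above. Shares over all genes were 20.9% lower and 18.1% higher. Without any one of the DMSO replicates 1 list gene fell instead of 2. After the siRNA, NME1 was called lower (173 ± 4.35 to 50.9 ± 0.951 CPM, −1.77), as were APEX1 (200.5 ± 4.52 to 168 ± 3.45 CPM, −0.25) and SET (812 ± 15.5 to 773 ± 18.7 CPM, −0.07). ANP32A was called higher (0.06). Of all genes, 29.2% were called lower and 27.4% higher after the siRNA.

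Genes whose values over all 12 libraries lay closest to each member were ranked by the root mean square difference of log2 CPM, centred on each gene's own mean over the 12 libraries, among 10293 protein-coding genes. All points share libraries and scaling, so this is a description only. For HMGN1 near genes included MACROH2A2 (0.052), the ribosomal protein gene RPL27A (0.060), SERPINE2 (0.070) and BABAM1 (0.077). For HMGN3 they were MRPL33 (0.052) and SRF (0.057), and for HMGN5 RAB22A (0.050) and PCTP (0.068). HMGN4 and HMGB2, the 2 members that rose with ML60218, were each among the other's 5 nearest genes (0.038), and both had SMC3, a cohesin subunit, and DIS3L among theirs. SPCS1 was nearest to HMGB1 (0.022), MREG to HMGB3 (0.036), ATP5MC2 to HMGA1 (0.025) and NCOA5 to HMGN2 (0.085). HMGN2 had the least close neighbours of the 9.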

How the data were processed

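Messenger RNA of HEK293T cells was sequenced from 12 libraries. The deposited table holds, per the file headers, an estimated count and a TPM value for each of 194142 transcripts, in the column names that the quantifier salmon writes. Its version, settings and transcript release are not given in the sources used here. The submitters' processing notes name hg38, bcl2fastq 2.20, Trim Galore and DESeq2. TPM values as deposited by the authors were summed per gene and used for levels.

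Transcripts were matched by identifier to GENCODE 29 on GRCh38 (158359, 81.6%). Unmatched transcripts held 8.37% to 8.97% of reads and stayed out. Sums of estimated counts per gene were rounded to whole numbers. For each comparison edgeR 4.0.16, run in R 4.3.3, used only the 6 libraries concerned (filterByExpr minimum count 10 and total 15, TMM scaling, robust quasi-likelihood test, two-sided, Benjamini-Hochberg over all genes tested, called under 0.05). CPM use the TMM factors, and the SE is the log2 fold change over the square root of F. With 3 libraries a group, an exact permutation test cannot go under 0.1. Replicates of a group differed by more than counting noise, so no library was counted as a duplicate. The fits were tested on simulated counts.

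Named genes were the 9 members with HMGA2 and HMGB4, and of each list the 3 largest changes (called ones for ML60218). A few genes that this rule or the likeness ranking names are not reported here. The members, lists and hexamers were chosen with earlier results of these data known. The likeness ranking took protein-coding genes whose mean log2 CPM reached 3. Alternatives were other scalings, no filter, DESeq2 1.42.0, all libraries in one fit, a replicate block, transcripts matched through their neighbours (17252), an isoform length offset, added pseudogene reads and leaving out each library.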

Additional observations from a re-analysis of the deposited data

How the results depend on the processing

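Of 720 ML60218 values of called genes under alternatives 1 had the opposite sign, as did 1 of 832 siRNA values. Among genes not called, 29 of 495 and 29 of 368 did. Both values of called genes came with the isoform length offset, which gave HMGB3 a log2 fold change of 0.10 after the siRNA and UBTF, an HMG-box factor of ribosomal gene transcription, 0.013 with ML60218 (adjusted p 0.834, range over its alternatives 0.0125 to 0.834). The cause was not tested. Leaving out 1 library at a time gave between 7997 and 8361 called genes after the siRNA (8722 with all), between 4159 and 6501 with ML60218 (6029 with all), and between 4 and 8 called HMG genes with ML60218 (8 with all). Under upper-quartile and total-count scaling, 58.7% and 57.0% of the siRNA calls were higher (48.4% with TMM), as were 58.6% and 67.0% of the ML60218 calls (46.4% with TMM), and the HMG genes called with ML60218 numbered 7 and 6.

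With the replicate number as a block, 8493 genes were called after the siRNA, 5393 with ML60218, and 7 of the HMG genes, HMGN4 being the one lost. Deviations of same-numbered libraries from their group means correlated between −0.093 and −0.012. No control library correlated best with the treated library of its own number. These values give no sign of pairing by number, but with means of only 3 libraries they cannot exclude it.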
